A study of Mus musculus with 10 samples.

Results

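Neurotrophin signaling in the cortical hem (CH) was described through 5 genes, the receptor genes *Ntrk2*, *Ntrk3* and *Ngfr* and the ligand genes *Bdnf* and *Ntf3*. They were found by their symbols among the 52227 genes of the deposited count table. The group was proposed after the genotype difference of *Ntrk2* in these libraries was known, so the genotype differences of the 5 genes are given as a description, without a test. RNA was sequenced from CH isolated by laser capture microdissection at e13.5, from 5 wild-type embryos and 5 *Lmx1a-/-* embryos, and the labels give no treatment. *Lmx1a* encodes a LIM homeodomain transcription factor of the CH and the choroid plexus. The mutants were homozygous for dreherJ, a germline allele that the study describes as null, so every tissue of the embryo carried it. Mice were of a mixed C57Bl6, FVB and CD1 background. Tissue from the sections of 1 embryo made 1 library, and neighboring sections stained for Lmx1a guided the capture.

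Neurotrophins are secreted growth factors that are made as precursors, cleaved by proteases such as furin, and bind as dimers to receptors on neurons and progenitors. TrkB, encoded by *Ntrk2*, is a receptor tyrosine kinase for BDNF and neurotrophin-4, and TrkC, encoded by *Ntrk3*, prefers neurotrophin-3. The p75 receptor, encoded by *Ngfr*, binds all neurotrophins, and with sortilin it binds their precursors. Activated Trk receptors recruit adaptor proteins and signal through the MAP kinase, PI3 kinase and phospholipase C-gamma routes. In the developing brain these routes are known for neuronal survival, differentiation and migration, and in the cortical marginal zone Cajal-Retzius (CR) cells are known to respond to BDNF through TrkB.

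The libraries held between 19145952 and 36462780 counts on genes, of which 20.6% to 27.6% were on mitochondrial genes. Levels are normalized CPM, the usual depth-scaled read count with TMM factors, and means over embryos carry their SD. dreherJ embryos still make *Lmx1a* transcript, and its mean was 71.2 ± 18.2 CPM in controls and 114 ± 21.0 CPM in mutants (SD, n = 5 embryos each), so its level does not check the genotype labels. *Xist*, a transcript of the inactive X chromosome, lay between 4399 and 5169 CPM in wild-type embryos 2 to 5, at 1.01 CPM in wild-type embryo 1 and at or below 1.15 CPM in every mutant. Y-linked transcripts were present in the other 6 embryos, so sex chromosomes and genotype cannot be told apart except through wild-type embryo 1. All 14 CH marker genes were detected, with summed levels of 2296 to 4364 CPM in wild-type and 2766 to 3915 CPM in mutant libraries, and 5 were lower and 1 higher past the threshold given below for all genes (median log2 fold change -0.43). The 1 higher was *Lmx1a* itself (log2 fold change 0.68, edgeR FDR = 0.0658), so the mutant sums include the raised transcript of the mutated gene. Wild-type embryo 4 stood apart in 12 markers of surface epithelium, a list chosen after its values were seen. Their sum was 1078 CPM in that embryo, 51.6 to 150 CPM in the other wild-type embryos and 14.7 to 128 CPM in the mutants. Among them *Krt5*, a keratin of basal epithelial cells, reached 378 CPM in that embryo and was at 0 in *Lmx1a-/-* embryos 2 and 4.

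Of the receptor genes, *Ntrk2* had the highest mean level per length in both genotypes. *Ntrk2* (ENSMUSG00000055254) spans bases 58806569 to 59133970 on the plus strand of chromosome 13 (GRCm38), with 23 merged exons and 10 annotated transcripts, 7 of them protein coding. These include the full-length kinase and truncated receptors without a kinase domain, and the gene-level counts sum over both. The annotation places 4 other genes inside the locus, and none of them shares an exon base with *Ntrk2*. LIM homeodomain proteins are known to bind AT-rich sites with a TAAT core, and for that reason the 250 bases before the annotated start of *Ntrk2* are shown, from RefSeq on GRCm38.p6, chr13:58806319-58806568, plus strand, 5′ to 3′, with each TAAT match on either strand in capitals.
*Ntrk2* promoter: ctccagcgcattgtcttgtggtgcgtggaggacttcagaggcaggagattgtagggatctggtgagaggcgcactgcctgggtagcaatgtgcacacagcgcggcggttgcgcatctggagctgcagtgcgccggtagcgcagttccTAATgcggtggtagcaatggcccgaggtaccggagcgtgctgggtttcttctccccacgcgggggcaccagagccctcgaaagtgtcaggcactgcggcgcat
The window holds 1 match, on the plus strand, and its first base lies 103 bases before the start. Such a match is common, being found in 54.9% of the 32851 promoters in the same table. For the other genes, 4 of 7 listed *Bdnf* promoters and 1 of 2 *Ntf3* promoters held TAAT on either strand, the single *Ngfr* promoter held none, and no promoter of *Ntrk3* was listed. A match is a run of letters and says nothing about binding.

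*Ntrk2* was lower in the CH of every *Lmx1a-/-* embryo than in that of any wild-type embryo. Wild-type embryos 1 to 5 had 118, 127, 88.7, 119 and 153 CPM. *Lmx1a-/-* embryos 1 to 5 had 68.8, 57.6, 57.0, 75.6 and 71.7 CPM. The groups did not overlap, and the gap lay between 88.7 CPM in wild-type embryo 3 and 75.6 CPM in mutant embryo 4. The wild-type mean was 121 ± 23.1 CPM and the mutant mean 66.1 ± 8.43 CPM (SD over 5 embryos), which differ by -0.87 on the log2 scale (SE 0.13, 95% interval -1.16 to -0.59). Each library gave between 1060 and 4146 counts on the gene, so counting error is small beside the spread between embryos. In bulk tissue, fewer cells that express a gene and less RNA per cell cannot be told apart, which holds for every difference given here.

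Genes are called here at an FDR (false discovery rate by Benjamini-Hochberg) below 0.1 in edgeR's quasi-likelihood test. Across the 21664 genes tested, 4.02% were past this threshold, 2.29% lower and 1.72% higher in the mutants, and in 4.44% the groups did not overlap. *Ntrk2* is 1 of the genes past it and the other 4 described here are not, but the group was proposed with this contrast in view, so that count is no test and nothing is read from it. All 5 genes passed the filter on low counts, and each of them did so in both genotypes.

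**Figure D1:**
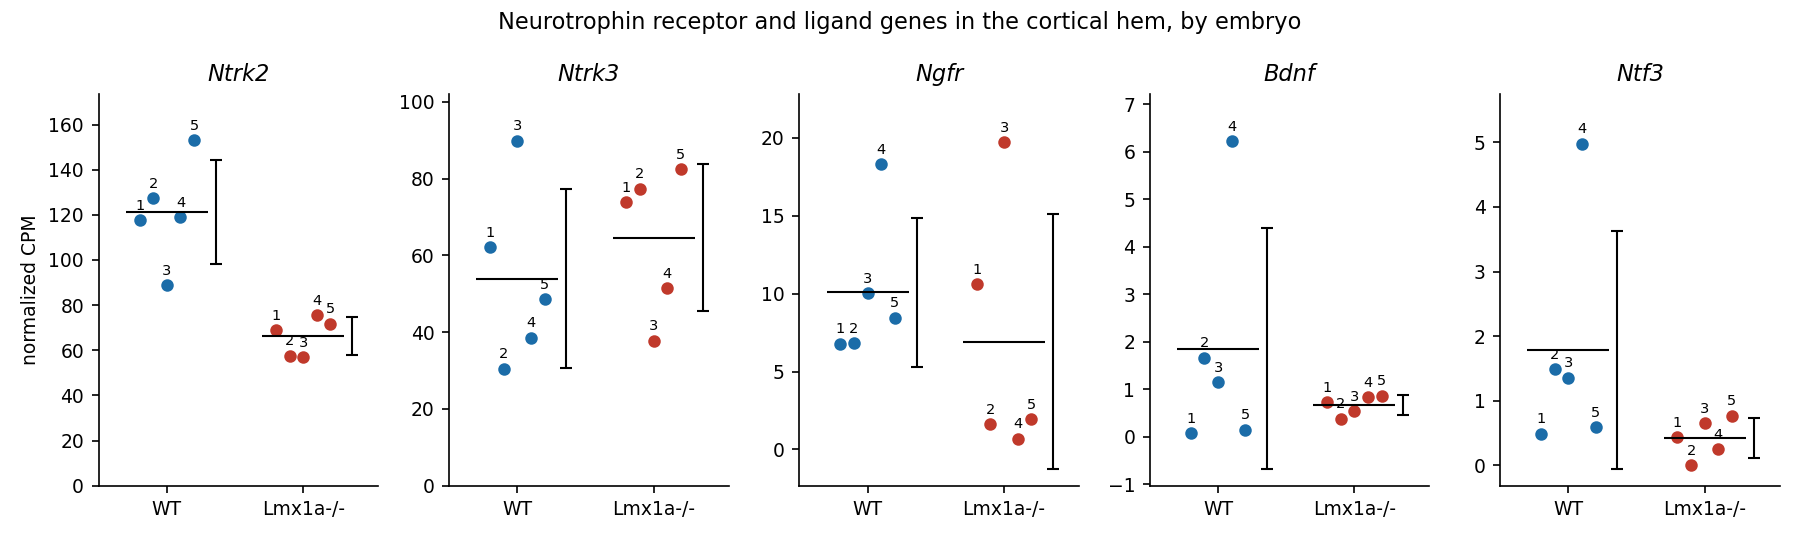
Normalized CPM of *Ntrk2*, *Ntrk3*, *Ngfr*, *Bdnf* and *Ntf3* on separate linear axes, with 1 numbered point per embryo, a horizontal line at the mean of each genotype and a bar for ± 1 SD (n = 5). The 5 wild-type points for *Ntrk2* lie between 88.7 and 153 CPM, above the 5 *Lmx1a-/-* points at 57.0 to 75.6 CPM, while the groups overlap for the other 4 genes and wild-type embryo 4 stands at 6.23 CPM for *Bdnf* and 4.98 CPM for *Ntf3*.

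Marker sums of neighboring cell types differed between the genotypes beside *Ntrk2*. The 14 markers of choroid plexus epithelium summed to 461, 494, 136, 303 and 430 CPM in wild-type embryos 1 to 5, and to between 155 and 234 CPM in the mutants, and 4 of the 13 tested were past the threshold, all lower. Their defining gene *Ttr* ran from 5.74 to 164 CPM in controls and from 1.14 to 15.1 CPM in mutants, and was at 0 in none. Wild-type embryo 3 was below every mutant both in these markers and in the summed CH markers (2296 CPM), and its *Ntrk2* level of 88.7 CPM was above every mutant. It was also the lowest of the wild-type embryos in both sums and in *Ntrk2*. The 11 CR cell markers summed to between 488 and 694 CPM in wild-type and between 311 and 462 CPM in *Lmx1a-/-* libraries, without overlap (3 lower and 1 higher of 10 tested). Markers of cortical neuroepithelium differed the other way, with 10 genes summing to 1738 to 2659 CPM in wild-type and 2998 to 3849 CPM in mutant libraries (2 higher of 10 tested). Red blood cell markers summed to 632 to 1473 CPM in controls and 267 to 573 CPM in mutants (0 of 8 past the threshold in edgeR, 5 at an unadjusted p under 0.05), and mesenchyme markers to 377 to 976 CPM in controls and at most 554 CPM in mutants (3 lower of 10). Endothelial markers, at 20.4 to 79.2 and 20.4 to 48.2 CPM, and microglial markers, at 14.0 to 30.3 and 16.1 to 29.1 CPM, overlapped. With the mean choroid plexus marker level as a covariate, the log2 fold change of *Ntrk2* was -0.50 (SE 0.21). The part of the CR cell, neuroepithelium, blood and mesenchyme markers in the *Ntrk2* difference was not tested.

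The sex chromosomes differed between the genotypes as well. Wild-type embryo 1, the one control with Y-linked transcripts, had 118 CPM of *Ntrk2*, which is above all 5 mutants. Fitted to the 6 embryos with Y-linked transcripts, where the lone wild-type embryo is assumed to vary like the mutants, the log2 fold change was -0.84 (SE 0.17). With *Xist* as a covariate it was -0.80 (SE 0.23). With the *Xist* covariate or the choroid plexus covariate *Ntrk2* is no longer among the genes past the threshold. Leaving out each embryo in turn gave values between -0.97 and -0.78.

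**Figure D2:**
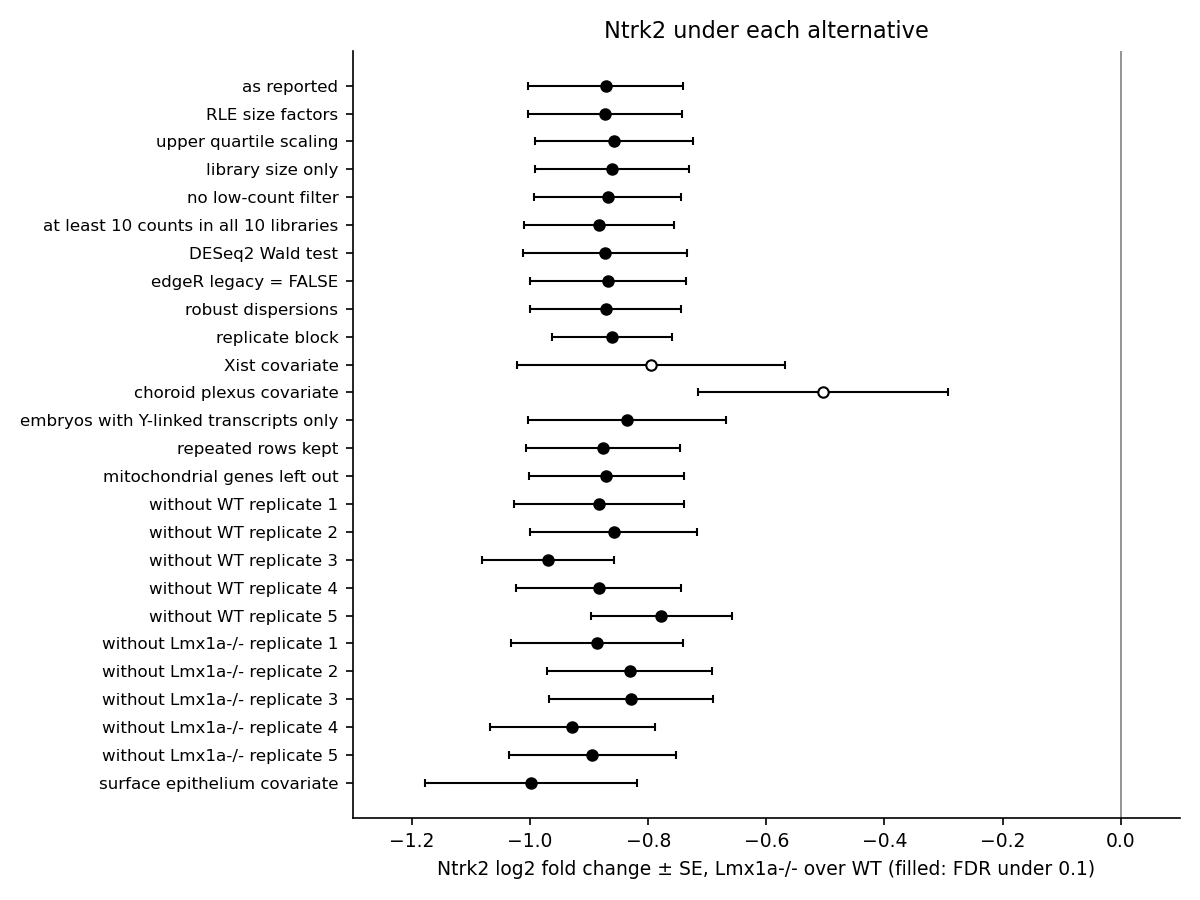
Log2 fold change of *Ntrk2*, *Lmx1a-/-* over wild type, with bars of ± 1 SE, under the settings named at the left, filled where the gene was past an FDR of 0.1. The values lie between -0.999 with the surface epithelium covariate and -0.50 with the choroid plexus covariate. The open points are the fits with the *Xist* and the choroid plexus covariate. The fill is a description and no test, since the group was proposed with this contrast known.

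*Ntrk3* (ENSMUSG00000059146, chromosome 7, 78175959 to 78738012, minus strand) was expressed in every library at levels that overlapped between genotypes. Wild-type embryos 1 to 5 had 62.2, 30.4, 89.9, 38.6 and 48.6 CPM. *Lmx1a-/-* embryos 1 to 5 had 73.8, 77.3, 37.8, 51.5 and 82.4 CPM. The levels spread widely in both groups, and the highest level of all belonged to wild-type embryo 3. The wild-type mean was 53.9 ± 23.3 CPM and the mutant mean 64.6 ± 19.1 CPM, a log2 difference of 0.26 (SE 0.27) whose 95% interval ran from -0.33 to 0.84. The sign turned with a covariate, to -0.0100 with *Xist*, -0.37 with the choroid plexus markers and -0.075 with the surface epithelium markers.

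Over the 10 libraries, the genes whose log2 CPM was most like that of *Ntrk3* were *Bach2* (Pearson r = 0.961), *Dcx* (0.952), *Dpysl3* (0.950), *Syt11* (0.946) and *Ttc39b* (0.939), among 9269 genes with a mean of at least 10 CPM. *Dcx* encodes doublecortin, a microtubule protein of migrating young neurons, and *Dpysl3* encodes another cytoskeletal regulator of young neurons. These genes were looked up after the values of *Ntrk3* were seen, and the list depends on the measure. By Spearman's rho the 5 were *Ptprd*, *Ndn*, *Stx7*, *Dpysl3* and *Dcx*, and after each genotype's mean was subtracted they were *Syt11*, *Magee1*, *Lrrc75b*, *Bach2* and *Lama4*. *Dcx* was at 303, 182, 386, 204 and 251 CPM in wild-type embryos 1 to 5 and at 309, 401, 216, 234 and 462 CPM in *Lmx1a-/-* embryos 1 to 5. Its lowest level was in wild-type embryo 2, as for *Ntrk3*. Its highest was in mutant embryo 5, while that of *Ntrk3* was in wild-type embryo 3. The 10 neuronal markers summed to 874 to 1444 CPM in wild-type and 1000 to 1531 CPM in mutant libraries, and none of the 10 was past the threshold (edgeR quasi-likelihood test, 2 at an unadjusted p under 0.05). The libraries share capture, depth and composition, so a high r is a description of these 10 libraries.

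**Figure D3:**
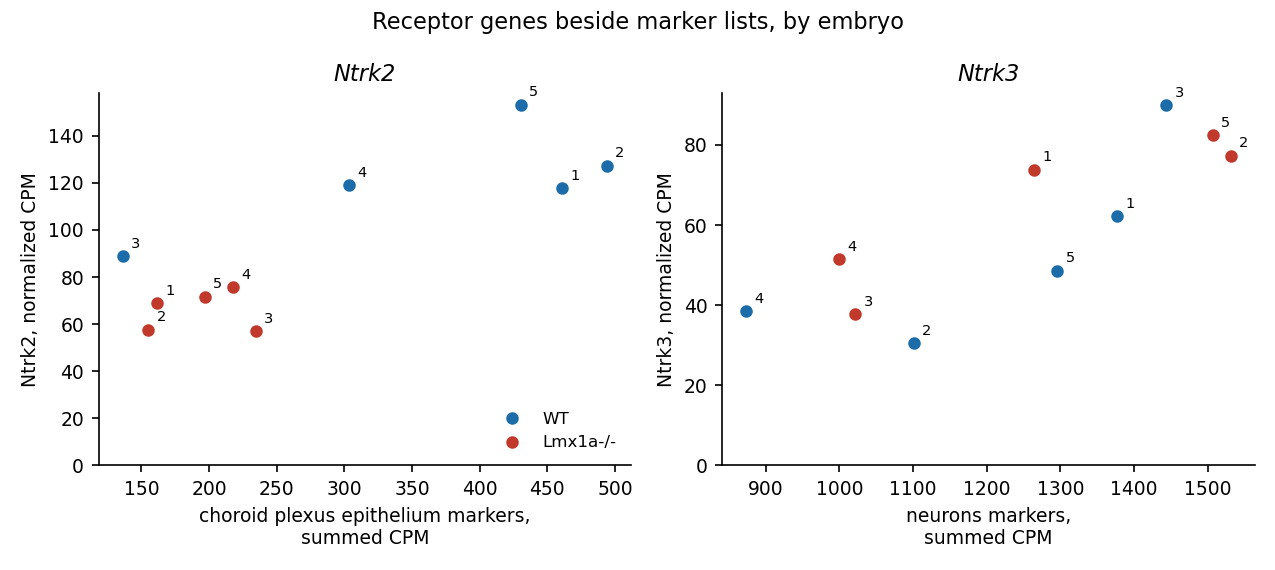
Left, *Ntrk2* in CPM against the summed CPM of 14 choroid plexus epithelium markers, and right, *Ntrk3* against the summed CPM of 10 neuronal markers, with 1 numbered point per embryo on linear axes. Wild-type embryo 3 lies at 136 CPM of choroid plexus markers and 88.7 CPM of *Ntrk2*. That point is left of and above all mutants, and left of and below the other wild-type embryos. *Ntrk3* runs from 30.4 CPM in wild-type embryo 2 to 89.9 CPM in wild-type embryo 3.

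*Ngfr* (ENSMUSG00000000120, chromosome 11, 95568818 to 95587735, minus strand) was present at lower levels, with a wider spread in the mutants than in the controls. Its levels were 6.79, 6.81, 10.03, 18.3 and 8.46 CPM from wild-type embryo 1 to embryo 5. From *Lmx1a-/-* embryo 1 to embryo 5 they were 10.6, 1.63, 19.7, 0.692 and 1.95 CPM. Mutant embryos 2, 4 and 5 lay below every wild-type embryo, and mutant embryo 3 lay above every one. The means of 10.1 ± 4.80 and 6.92 ± 8.20 CPM gave a log2 fold change of -0.53 (SE 0.70), with a 95% interval from -2.04 to 0.97. Without mutant embryo 3 the value was -1.43 (SE 0.64), and without wild-type embryo 4 it was -0.21 (SE 0.72).

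The 3 mutant embryos lowest in *Ngfr* were also the lowest in surface epithelium markers. The sum of those 12 markers was 14.7, 27.5 and 22.9 CPM in mutant embryos 2, 4 and 5, against 62.5 and 128 CPM in mutant embryos 1 and 3. The orders did not match throughout, since wild-type embryo 4, with 1078 CPM of markers, had less *Ngfr* (18.3 CPM) than mutant embryo 3 (19.7 CPM), and wild-type embryo 2, with 150 CPM of markers, had less (6.81 CPM) than mutant embryo 1 (10.6 CPM). *Krt14*, the keratin partner of *Krt5*, stood at 8.45, 0, 19.9, 0 and 0.870 CPM in mutant embryos 1 to 5. Over all 21664 genes tested, the transcripts most like *Ngfr* across the 10 libraries were *Gm35638* (Pearson r = 0.974), *Lama3* (0.962), *Upk1b* (0.955), *Rbks* (0.953) and *Tcf3* (0.953), looked up after its values were seen, and 1 of these 5 was among the 5 by Spearman's rho (*Gm35638*). *Lama3* encodes a laminin chain of epithelial basement membranes and *Upk1b* a uroplakin of epithelia. With the surface epithelium markers as a covariate, an alternative also chosen after seeing the data, the log2 fold change of *Ngfr* was 0.81 (SE 0.37), the other direction. The markers of peripheral glia, which use p75 as well, summed to 34.9 CPM in wild-type embryo 4. They summed to 5.50 to 15.2 CPM in the other wild-type libraries and 7.60 to 14.7 CPM in mutant libraries.

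Both ligand genes were present at low levels in the CH. *Bdnf* (ENSMUSG00000048482, chromosome 2, 109674700 to 109727007, plus strand) gave 0.075, 1.67, 1.15, 6.23 and 0.148 CPM for wild-type embryos 1 to 5, from 2, 37, 39, 120 and 4 counts. *Lmx1a-/-* embryos 1 to 5 gave 0.731, 0.380, 0.545, 0.831 and 0.870 CPM, from 22, 7, 16, 30 and 25 counts. The wild-type embryos bracketed the mutants, with 3 of them above and 2 below all 5. The wild-type mean was 1.85 ± 2.54 CPM and the mutant mean 0.671 ± 0.206 CPM, a log2 difference of -1.43 (SE 0.84, 95% interval -3.25 to 0.39). Without wild-type embryo 4 the value was -0.17 (SE 0.73). An antisense gene, *Gm45346*, shares 14.4% of the *Bdnf* exon bases and had 0 counts in every library.

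*Ntf3* (ENSMUSG00000049107, chromosome 6, 126101412 to 126166910, minus strand), which encodes neurotrophin-3, gave 0.485, 1.49, 1.35, 4.98 and 0.591 CPM for wild-type embryos 1 to 5. For *Lmx1a-/-* embryos 1 to 5 the values were 0.432, 0, 0.647, 0.249 and 0.765 CPM. Mutant embryo 2 had no count, which allows a level of up to 0.163 CPM (3 counts, counting error only). Wild-type embryos 2, 3 and 4 lay above all mutants, and embryos 1 and 5 lay among them. The wild-type mean was 1.78 ± 1.84 CPM and the mutant mean 0.419 ± 0.307 CPM, a log2 difference of -2.04 (SE 0.76, 95% interval -3.68 to -0.39). Without wild-type embryo 4 it was -1.20 (SE 0.72), and the sign was positive with *Xist* as a covariate, at 0.13 (SE 1.20). In embryos with Y-linked transcripts only, with wild-type embryo 1 as the lone control, the log2 difference was -0.19.

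Wild-type embryo 4, the library with the most keratin transcript, had the most transcript of *Bdnf*, *Ntf3* and also *Ntf5*, the gene of neurotrophin-4. *Ntf5* was at 3.37 CPM in that embryo and ran from 0 to 0.857 CPM in the other wild-type embryos. In the mutants it ran from 0 to 1.46 CPM, and the highest level belonged to mutant embryo 3, which also had the highest surface epithelium sum of its group. Its log2 fold change of -1.17 (SE 1.17) missed the threshold, and without wild-type embryo 4 it was 0.27. With the surface epithelium markers as a covariate, chosen after seeing the data, the log2 fold change of *Ntf3* was -0.099 (SE 0.96). For *Bdnf* it was 0.65 (SE 1.46) and for *Ntf5* 2.10 (SE 1.14). The part of the surface epithelium in the ligand levels was not tested beyond these values.

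**Figure D4:**
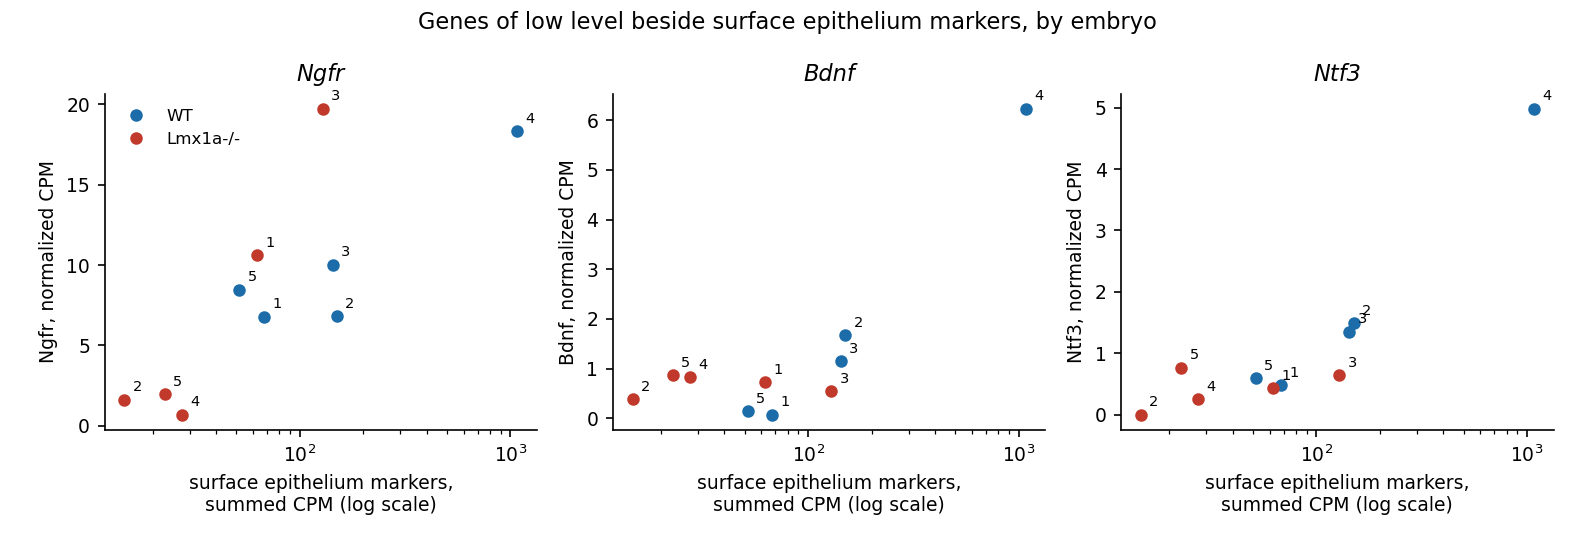
*Ngfr*, *Bdnf* and *Ntf3* in CPM (linear axes) against the summed CPM of 12 surface epithelium markers (log axis), with 1 numbered point per embryo. Wild-type embryo 4 lies far to the right at 1078 CPM and holds the highest *Bdnf* (6.23 CPM) and *Ntf3* (4.98 CPM) levels, and the 3 mutants under 30 CPM of markers have the 3 lowest *Ngfr* levels.

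Compared per length of the merged exons, *Ntrk2* stood highest of the 5 genes in wild-type CH. The levels were 6.28 ± 1.20 CPM per kb for *Ntrk2*, 2.93 ± 1.39 for *Ngfr*, 1.79 ± 0.773 for *Ntrk3*, 1.04 ± 1.08 for *Ntf3* and 0.298 ± 0.408 CPM per kb for *Bdnf* (SD, n = 5). *Ntrk2* was above *Ngfr* in 5 of 5 embryos, by 1.19 on the log2 scale of CPM per kb, and *Ntf3* was above *Bdnf* in 5 of 5, by 2.75. The *Ntf3* and *Bdnf* differences were 4.56 and 3.86 in embryos 1 and 5, where *Bdnf* had 2 and 4 counts, and 1.54 to 2.10 in the other 3, so the mean of 2.75 leans on counts near or under the floor of 3. The pairs compared are neighbors in the order of these same wild-type means, so the p-values describe that order and do not test it. For both pairs the two-sided exact sign-flip permutation test gave p = 0.062, the smallest it can give with 5 embryos. *Ngfr* and *Ntrk3*, with *Ngfr* higher in 3 of 5 embryos, did not differ beyond their spread (exact permutation p = 0.25), nor did *Ntrk3* and *Ntf3*, with *Ntrk3* higher in 4 of 5 (exact permutation p = 0.188). In *Lmx1a-/-* CH the levels were 3.43 ± 0.437 CPM per kb for *Ntrk2*, 2.14 ± 0.633 for *Ntrk3*, 2.01 ± 2.38 for *Ngfr*, 0.244 ± 0.179 for *Ntf3* and 0.108 ± 0.0331 CPM per kb for *Bdnf*. By its mean, *Ntrk2* was thus first in both genotypes. In mutant embryo 3, however, *Ngfr* was at 5.72 CPM per kb, above the highest *Ntrk2* level of any mutant, 3.92 CPM per kb.

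The transcripts whose pattern was most like that of *Ntrk2* over the 10 libraries were *Btbd11* (Pearson r of log2 CPM = 0.959), *Peg3* (0.959), *Lrp1b* (0.956), *Galnt14* (0.953) and *Ecm2* (0.947), among 9269 genes. All 5 were lower in the mutants past the threshold without overlap of the groups, which alone gives a high r. After each genotype's mean was subtracted, these 5 had r values of 0.742 to 0.823. By that measure the most similar genes were others, *Mamdc2* (0.962), *Pkn2* (0.935), *Mat2b* (0.932), *Gm16973* (0.926) and *Asah1* (0.915), so the list depends on the measure.

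The wider neurotrophin pathway was read from 95 genes grouped by role, apart from the 5 described above. Of these, 89 were tested, and past the threshold 6 were lower and 2 higher in the mutants, or 8.99% against 4.02% of all genes. The list and its roles were chosen with earlier results of these data known. This share and those by role below are therefore descriptions and no test. The median log2 fold change over the 89 genes was -0.082, with 58 below 0, against -0.0049 over all genes tested, of which 50.6% were below 0.

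Among the 8 tested receptors and coreceptors, 2 rose and none fell (25.0%, beside 4.02% of all genes). At an unadjusted p under 0.05 there were 3 (edgeR), and the median was -0.011. *Sorcs1*, a sorting receptor of the sortilin family, rose in mutant CH, from a mean of 10.8 ± 2.38 to one of 34.2 ± 5.87 CPM (log2 difference 1.66, SE 0.17, FDR = 0.000313 in edgeR's quasi-likelihood test with Benjamini-Hochberg adjustment). It stood at 7.20 to 13.3 CPM in wild-type and 30.3 to 44.4 CPM in mutant embryos, without overlap and in the direction opposite to *Ntrk2*. *Lingo1*, which encodes a p75 coreceptor, also rose, with means of 4.14 ± 1.42 and 9.67 ± 3.70 CPM (log2 difference 1.22, SE 0.29, edgeR FDR = 0.0507). The groups overlapped for *Lingo1*, and it was not past the threshold without wild-type embryo 2 or 4 or mutant embryo 4 or 5 (edgeR FDR between 0.101 and 0.134). *Sort1*, the gene of sortilin itself, had means of 110 ± 13.5 and 107 ± 8.75 CPM (log2 difference -0.047, SE 0.093).

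Between the receptors and the nucleus, 1 gene of each role passed. Of 23 tested Trk adaptors 1 fell (4.35%, median -0.057), of 29 genes grouped as kinases and GTPases 1 fell (3.45%, median -0.071), and of 8 p75 adaptors 1 fell (12.5%, median -0.080), beside 4.02% of all genes. The 1 that fell in the kinase and GTPase group was *Itpr1*, which encodes a channel, so no kinase or GTPase of the list was called. At an unadjusted p under 0.05 there were 2, 7 and 2 genes in these roles, and 3545 of all 21664 genes (edgeR). The Trk adaptor gene was *Irs1*, an insulin receptor substrate, at 105 to 121 CPM in wild-type and 53.9 to 82.5 CPM in mutant embryos (log2 fold change -0.69, SE 0.11, edgeR FDR = 0.00485). *Itpr1*, the calcium channel of the endoplasmic reticulum that opens after phospholipase C is activated, fell, with means of 235 ± 61.3 and 109 ± 19.3 CPM (log2 difference -1.10, SE 0.18, edgeR FDR = 0.00639). Its groups did not overlap, with 141 CPM in the lowest wild-type and 129 CPM in the highest mutant embryo. *Maged1*, which encodes a p75-binding protein, fell less, with means of 929 ± 62.4 and 764 ± 57.1 CPM (log2 difference -0.28, SE 0.071, edgeR FDR = 0.0623), and it lost the call without any 1 of 5 embryos (wild-type 1, 2 or 5, mutant 4 or 5, edgeR FDR up to 0.147). None of 5 tested genes for cleavage and binding of the precursors passed (2 at an unadjusted p under 0.05, edgeR), and their median was -0.17.

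Genes that neuronal activity and Trk signaling are known to induce included 3 of 15 tested that fell and none that rose (20%, beside 4.02% of all genes), and their median was -0.43. *Nr4a2*, a nuclear receptor, had levels of 52.7, 62.6, 33.3, 69.4 and 68.2 CPM for wild-type embryos 1 to 5 and of 23.0, 25.5, 17.1, 23.9 and 13.5 CPM for *Lmx1a-/-* embryos 1 to 5. Every wild-type embryo was above every mutant (log2 fold change -1.47, SE 0.21, edgeR FDR = 0.00280). *Arc*, an immediate early gene of synapses, had 4.48, 2.66, 3.62, 3.06 and 3.14 CPM against 0.698, 0.870, 0.341, 0.858 and 0.139 CPM, again without overlap (log2 fold change -2.55, SE 0.42, edgeR FDR = 0.00735). The third was *Nptx2*, a secreted pentraxin of synapses named here after its values were seen, with means of 3.48 ± 1.83 and 0.815 ± 0.519 CPM (log2 difference -2.07, SE 0.49, edgeR FDR = 0.0455), which was not past the threshold without wild-type embryo 1 (edgeR FDR = 0.123). *Egr1*, another immediate early gene, also named after its values were seen, had means of 9.58 and 4.09 CPM and did not pass (log2 difference -1.22, SE 0.60, edgeR FDR = 0.336). The 3 genes that passed are not specific to neurotrophins, and the CR cell markers given beside *Ntrk2* differed in the same direction.

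**Figure D5:**
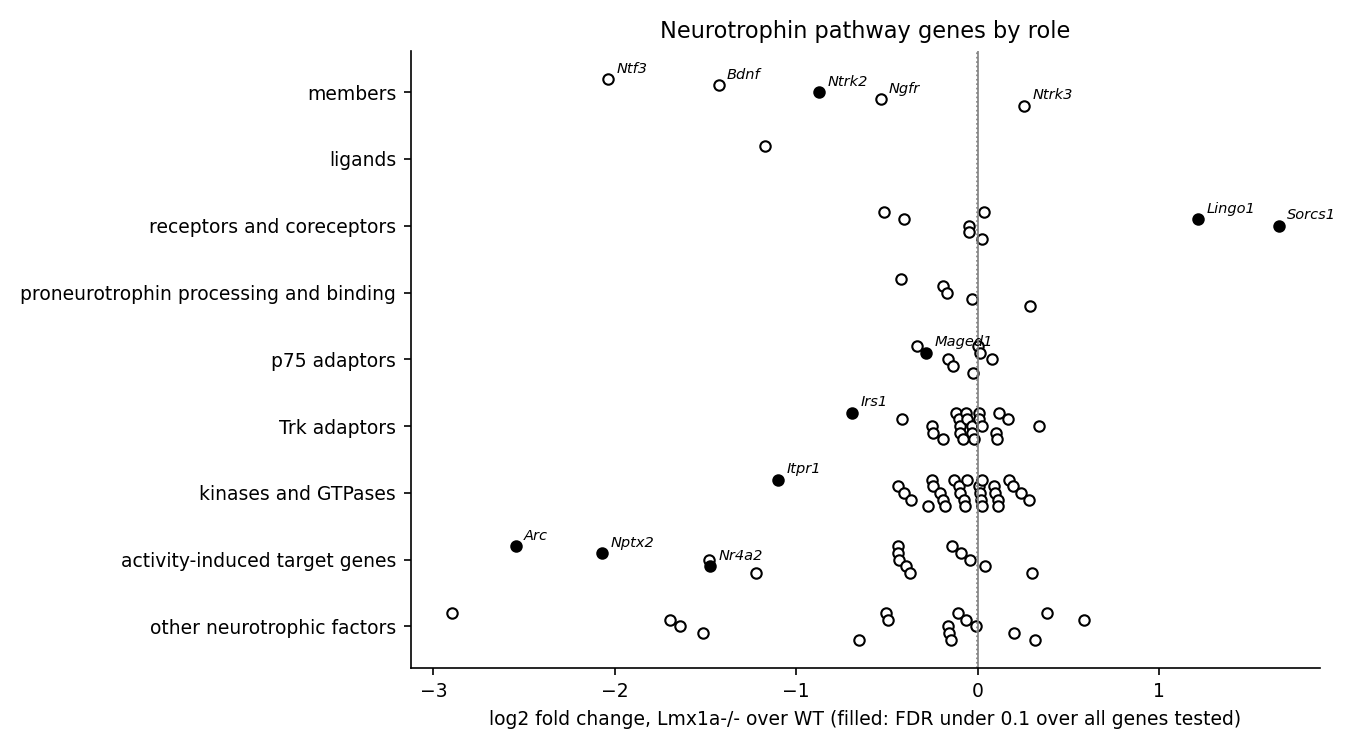
Log2 fold change, *Lmx1a-/-* over wild type, of the 5 genes described (top row, labelled members) and of the tested pathway genes by role and, in the last row, other neurotrophic factors, with 1 circle per gene, filled where its FDR was under 0.1, a solid line at 0 and a dotted line at the median of all genes. The filled circles left of 0 run from *Arc* at -2.55 to *Maged1* at -0.28, and the 2 on the right are *Lingo1* at 1.22 and *Sorcs1* at 1.66.

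With a covariate that moves with genotype the 8 pathway genes kept their direction, and their SEs were larger. Beside the choroid plexus markers the fitted changes on the log2 scale were -3.33 (SE 0.71) for *Arc*, -1.35 (SE 0.41) for *Nr4a2*, -1.68 (SE 0.76) for *Nptx2*, -0.81 (SE 0.19) for *Irs1*, -0.58 (SE 0.29) for *Itpr1*, -0.34 (SE 0.13) for *Maged1*, 0.61 (SE 0.47) for *Lingo1* and 1.48 (SE 0.30) for *Sorcs1*. None of the 8 was past the threshold there, and with *Xist* as a covariate *Sorcs1* was, at 2.27 (SE 0.29, edgeR FDR = 0.0164). The values of *Itpr1* and *Lingo1* moved toward 0 by over 1.5 times with the choroid plexus covariate. Of 17 tested genes of other neurotrophic factor families, which include the GDNF and CNTF receptors, none passed, with 3 at an unadjusted p under 0.05 (edgeR) and a median of -0.16. *Gfra2*, a GDNF family coreceptor, lay close to the threshold (log2 fold change -1.51, SE 0.45, edgeR FDR = 0.111) and passed with DESeq2 (adjusted p = 0.0616 by its Wald test with Benjamini-Hochberg adjustment). It also passed under other edgeR settings, with an FDR of 0.0782 without the low-count filter, 0.0882 with 10 counts required in all libraries, 0.0932 with legacy = FALSE and 0.0952 without wild-type embryo 4.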

How the data were processed

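RNA-seq libraries of laser-captured CH, 5 of wild-type and 5 of *Lmx1a-/-* genotype, were grouped and numbered by the sample labels. Per the labels and the methods of the study, reads were checked with FastQC 0.11.8, trimmed with Trimmomatic, aligned to GRCm38 with STAR 2.7.1a and counted per Ensembl gene with HTSeq 0.11.2. The values the authors deposited are these counts, without normalization. Whether HTSeq counted by strand is not given in the sources used here, so a gene and its antisense partner may share counts. Read pairs carry no molecular identifiers, so floors cover counting error only.

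Of 52508 rows, 281 exact repeats were dropped. Positions and exon lengths are those of GENCODE M21 (GRCm38), and promoter sequence is from RefSeq. The analysis used R 4.3.3, edgeR 4.0.16, limma 3.58.1, DESeq2 1.42.0 and Python 3.11.15. The 21664 genes that reached 10 counts in 3 or more libraries were compared with TMM scaling, a trended dispersion and edgeR's quasi-likelihood test (legacy = TRUE), adjusted by Benjamini-Hochberg, with FDR under 0.1 as the threshold, the filter and threshold of the study. SE is the size of the log2 fold change divided by the square root of F. P-values of edgeR set a genotype difference against the spread between these embryos, which is estimated with a trend over all genes tested.

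The 5 genes, the pathway roles and the marker lists were chosen with earlier results of these data known. The genes named are the 5, *Ntf5*, *Sort1*, *Lmx1a*, *Xist* and Y-linked genes, up to 2 lower and 2 higher genes per role with the smallest p among those past the threshold, and the 5 genes most like *Ntrk2* by each measure. Some genes that this rule names are left out and not reported here. Other genes were named after their values were seen. Alternatives were other scaling and filters, DESeq2, other dispersion settings, a replicate block, *Xist* or choroid plexus markers as a covariate, embryos with Y-linked transcripts only, repeated rows kept, mitochondrial genes left out and each embryo left out, and, added after seeing the data, surface epithelium markers as a covariate.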

Additional observations from a re-analysis of the deposited data

Results flagged for a closer look

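In groups of 5, a value was taken as standing apart where its gap to the nearest other was over 0.71 of the group's range (Dixon's test at 95%). This was asked of 52 groups and met in 10, where chance gives about 1 in 20 groups. The surface epithelium list was chosen after the values of wild-type embryo 4 were seen. Some of the genes were named by their p in these data, so the 10 cannot be weighed against that rate. Wild-type embryo 4 stood apart as the highest of its group for *Ngfr* (18.3 CPM), *Bdnf* (6.23 CPM), *Ntf3* (4.98 CPM), *Ntf5* (3.37 CPM) and the sum of surface epithelium markers (1078 CPM), and as the lowest for the sum of cortical neuroepithelium markers (1738 CPM). These 6 values come from 1 library and are not independent of each other. Mutant embryo 3 was highest for *Ntf5* (1.46 CPM), and mutant embryo 4 was highest for *Sorcs1* (44.4 CPM). For *Sorcs1* the other mutants, at 30.3 to 33.1 CPM, were still above every wild-type embryo. Summed markers of red blood cells were highest in wild-type embryo 1 (1473 CPM), and those of endothelium were lowest in mutant embryo 4 (20.4 CPM).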

How the results depend on the processing

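*Ntrk2* stayed lower in the mutants under every alternative, from -0.999 to -0.50 on the log2 scale. It was no longer past the threshold with the *Xist* covariate (-0.80) or the choroid plexus covariate (-0.50). For the 5 genes a place past the threshold is a description under each alternative and no test, since the group was proposed with this contrast known. With *Xist* as a covariate the sign turned for *Ntrk3* (-0.0100), *Ngfr* (0.27), *Bdnf* (3.34), *Ntf3* (0.13) and *Ntf5* (3.01). With choroid plexus markers it turned for *Ntrk3* (-0.37), *Ngfr* (0.38), *Ntf5* (0.40) and *Sort1* (0.077), and with surface epithelium markers, added after seeing the data, for *Ntrk3* (-0.075), *Ngfr* (0.81), *Bdnf* (0.65) and *Ntf5* (2.10). In embryos with Y-linked transcripts only it turned for *Ngfr* (0.031) and *Bdnf* (3.10), where the wild-type side is 1 embryo with 2 *Bdnf* counts. *Ntf3* passed with DESeq2 alone (-2.06, adjusted p = 0.0649). Leaving out 1 embryo gave -0.97 to -0.78 for *Ntrk2*, 0.10 to 0.52 for *Ntrk3*, -1.43 to -0.21 for *Ngfr*, -1.74 to -0.17 for *Bdnf* and -2.34 to -1.20 for *Ntf3*. The same fits gave -2.65 to 0.27 for *Ntf5*, positive without wild-type embryo 4, and -0.099 to 0.0071 for *Sort1*, positive without wild-type embryo 5.

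Pathway genes called lower numbered 6, with 0 under the *Xist* and choroid plexus covariates, 1 in embryos with Y-linked transcripts only, 3 with the surface epithelium covariate and 4 to 8 with 1 embryo left out. Those called higher numbered 2, with 0 under the choroid plexus covariate, 1 under the *Xist* covariate, the surface epithelium covariate, Y-linked embryos only and an FDR of 0.05, and 1 to 2 with 1 embryo left out. Of the other neurotrophic factors 1 was lower (*Gfra2*) with no low-count filter, with 10 counts required in all 10 libraries, with DESeq2, with legacy = FALSE and in Y-linked embryos only, and 0 to 1 with 1 embryo left out (*Gfra2* without wild-type embryo 4, *Nrtn* without mutant embryo 3). Over all genes, 497 lower and 373 higher became 976 and 790 with DESeq2, 24 and 1 with *Xist*, 9 and 4 with choroid plexus markers, 84 and 39 with surface epithelium markers, 86 and 44 in Y-linked embryos only, and 251 and 197 at an FDR of 0.05. Leaving out 1 embryo gave 261 to 604 lower and 190 to 455 higher. The cause was not tested.

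Libraries of the same embryo number did not deviate together, with correlations of -0.0844 to 0.00696. The study describes its controls as wild-type littermates, but the labels give no litter, so pairing by litter was not tested. With the replicate block *Ntrk2* was at -0.86, 1 pathway gene and 248 of all genes were higher, and 1 other neurotrophic factor was lower. Per length of the longest transcript, *Ntrk2* over *Ngfr* in wild-type CH was 2.33 in place of 1.19, and *Ngfr* over *Ntrk3* was 0.093 in place of 0.71. *Ntrk3* over *Ntf3* was 1.61 in place of 1.21, and *Ntf3* over *Bdnf* 2.41 in place of 2.75. The place of *Ngfr* above *Ntrk3* thus rests on the length chosen. Per length of the merged exons, *Ntrk2* over *Ngfr* was 1.05 to 1.43 with 1 embryo left out. Of the 5 genes most like *Ntrk2*, 2 were shared with the 5 by Spearman's rho and 0 after subtracting genotype means. *Bdnf* and *Ntf3* had too few counts for the filter of 10 counts in all 10 libraries and have no value there.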
